A study of Rattus norvegicus with 2 samples.

Results

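The neurexins, neuroligins and Lrrtm partners described here are 9 synaptic adhesion genes of the rat, chosen by symbol from the 25399 genes of the deposited gene tables. They are Nrxn2 (ENSRNOG00000021103) and Nrxn3 (ENSRNOG00000047574), Nlgn1 (ENSRNOG00000032576), Nlgn2 (ENSRNOG00000015430) and Nlgn3 (ENSRNOG00000003812), Lrrtm3 (ENSRNOG00000026466) and Lrrtm4 (ENSRNOG00000021938), and Il1rapl1 (ENSRNOG00000029663) and Il1rapl2 (ENSRNOG00000062221), each found in 1 row of both gene tables. Nuclear RNA of the orbitofrontal cortex was counted by single-nucleus RNA sequencing in male Sprague-Dawley rats of 8 weeks. The METH group received methamphetamine, a psychostimulant that releases dopamine, at 1 mg/kg by intraperitoneal injection for 7 days, and the saline group received saline over the same time. Tissue came from 4 animals per group, and the labels do not separate the animals, so each group is 1 library with no replicate. No test across animals was possible, no p-value is given, and every interval below is a 95% interval that covers counting error only.

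Neurexins sit in the presynaptic membrane and bind partners across the synaptic cleft. Neuroligins are their best known postsynaptic partners: neuroligin 1 is found mainly at excitatory synapses, neuroligin 2 at inhibitory synapses and neuroligin 3 at both. The LRRTM proteins are leucine-rich repeat proteins of the postsynaptic side that bind neurexins, and LRRTM4 also binds heparan sulfate proteoglycans. IL1RAPL1 is a postsynaptic receptor of the interleukin-1 receptor family that binds the presynaptic phosphatase PTPRD, and IL1RAPL2 is its close relative. The 3' libraries count all transcripts of a gene together, so the long and short neurexin forms and their splice variants were not told apart.

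The METH library held 5543 barcodes and 44969322 UMIs (unique molecular identifiers, which count RNA molecules), with a median of 6401 UMIs per nucleus. The saline library held 6969 barcodes and 42221257 UMIs, with a median of 4992 UMIs, and 9 barcodes occurred in both libraries. After filters and doublet removal 5159 METH and 6509 saline nuclei remained. Clusters were formed without the 9 genes and their listed partners among the variable genes and were named from marker genes, as X-like names whose suffix is left out below. The METH library gave 2147 excitatory and 1290 inhibitory neurons, 138 oligodendrocyte precursors, 426 astrocytes, 101 mural nuclei, 283 oligodendrocytes and 144 endothelial nuclei. The saline library gave 3484, 1221, 188, 521, 125, 363 and 162 of these classes in the same order. Levels are CPM, the gene's UMIs scaled to the total UMIs of its class in that library, compared between classes for 1 gene at a time and never between genes, since transcript lengths of the files' build were not used here. METH excitatory nuclei were deeper than saline ones, the median nucleus holding 9404 UMIs in METH and 6415 in saline, so values thinned to 1000 UMIs per nucleus are given where depth bears on a result.

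The promoters of the 3 neuroligins are shown because Nlgn1 levels set cell types apart while Nlgn2 and Nlgn3 were not told from background. Each is the 150 bases before the RefSeq gene start in the GRCr8 assembly, written 5′ to 3′ on the gene's strand, with CG dinucleotides in capitals.
Nlgn1, chr2:110930677-110930826, minus strand: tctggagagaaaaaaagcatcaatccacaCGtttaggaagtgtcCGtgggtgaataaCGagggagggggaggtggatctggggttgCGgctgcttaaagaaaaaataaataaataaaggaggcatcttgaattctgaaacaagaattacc
Nlgn2, chr10:55056579-55056728, minus strand: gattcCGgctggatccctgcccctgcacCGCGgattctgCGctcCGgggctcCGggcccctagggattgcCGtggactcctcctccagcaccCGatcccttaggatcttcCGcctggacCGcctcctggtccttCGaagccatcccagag
Nlgn3, chrX:70469328-70469477, plus strand: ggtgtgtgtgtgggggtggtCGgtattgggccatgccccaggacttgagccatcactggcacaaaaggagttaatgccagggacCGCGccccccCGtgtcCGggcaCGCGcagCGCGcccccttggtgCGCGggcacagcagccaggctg
The Nlgn1 window held 4 CG dinucleotides and 42.7% G and C, at the median of 4 CG over 33469 RefSeq promoters of the same length. The Nlgn2 and Nlgn3 windows each held 11, more than 75.9% of those promoters, at 67.3% and 68.7% G and C. The motif TATAAA, searched on both strands, was in none of the 3 windows and in 8.00% of all promoters. Of the 9 genes, 7 had an entry, and the other 4 windows held between 0 (Il1rapl1) and 4 (Il1rapl2) CG. These matches describe the letters of the windows only.

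Levels were first set against vascular nuclei, endothelial and mural, which were taken as the background of these libraries. For Il1rapl2 this background was uneven, since 1 mural nucleus held 75.3% of its METH mural UMIs. Each nucleus was thinned to 1000 UMIs, and a gene counted as above this background where the interval of its share of nuclei with a UMI lay above that of the vascular share and its UMI ratio was above 1 beyond its interval. Vascular medians before thinning were 1155 UMIs in METH and 1018 in saline, and 160 METH and 149 saline vascular nuclei reached 1000 UMIs. In excitatory neurons 6 of the 9 genes were above it in both libraries: Nrxn3, Nlgn1, Lrrtm3, Lrrtm4, Il1rapl1 and Il1rapl2. Inhibitory neurons added Nrxn2 and so had 7 of 9. Against mural nuclei alone, Il1rapl2 was no longer above background in METH excitatory neurons, Nrxn2 in inhibitory neurons of both libraries and Lrrtm3 in saline inhibitory neurons. With no doublet removal Nrxn2 was above background in excitatory neurons too, which then had 7 of 9 in both libraries, as inhibitory neurons did. Nlgn2 was found in 6.11% of METH and 5.80% of saline excitatory nuclei, against vascular shares of 3.75% in METH and 6.71% in saline, and Nlgn3 in 2.89% of METH and 2.87% of saline excitatory nuclei, against vascular shares of 1.25% in METH and 0.671% in saline. Neither was above background in any of the 5 classes compared with it, so they were not told from background at this depth. With so few and shallow vascular nuclei, this comparison cannot show that these genes were absent from neurons.

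Oligodendrocyte precursors, the dividing cells that give rise to oligodendrocytes and receive synaptic contacts from neurons, were above background for 6 genes in both libraries. Nrxn2 stood at 801 CPM in METH and 667 CPM in saline there, the highest level of this gene among all classes and neuron subclasses, and was found in 51.9% of METH and 50.6% of saline precursors at 1000 UMIs. Nlgn1 was at 5636 CPM in METH and 6095 CPM in saline, above its levels in all 13 neuron subclasses. Il1rapl1 stood at 5464 CPM in METH and 5068 CPM in saline, below layer 2/3 neurons and above the next excitatory subclass in both libraries. Lrrtm4 was at 4072 CPM in METH and 3343 CPM in saline, Nrxn3 at 4793 CPM in METH and 5055 CPM in saline and Lrrtm3 at 689 CPM in METH and 685 CPM in saline. Thus both sides of the neurexin pairing were counted in these non-neuronal nuclei. Il1rapl2, in 4.44% of METH and 10.0% of saline precursors, was not above the vascular shares of 10.0% in METH and 9.40% in saline.

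Astrocytes were above background for Nlgn1 alone, at 2484 CPM in METH and 2630.0 CPM in saline and in 87.5% of METH and 90.5% of saline nuclei at 1000 UMIs. Their Nrxn3, Lrrtm3, Lrrtm4, Il1rapl1 and Il1rapl2 levels were below the vascular level in both libraries. In METH astrocytes only Lrrtm4 stayed below it where endothelial nuclei alone or the microglia-marker cluster gave the background, while in saline astrocytes all of these 5 stayed below against endothelial nuclei and only Lrrtm4 and Il1rapl1 against the microglia-marker cluster. Oligodendrocytes were above background for Il1rapl1, at 2921 CPM in METH and 2854 CPM in saline, and for Lrrtm3, at 293 CPM in METH and 364 CPM in saline. Astrocytes and oligodendrocytes thus held different genes of the set, Nlgn1 in one and Il1rapl1 with Lrrtm3 in the other. The oligodendrocyte result for Lrrtm3 was lost where mural nuclei alone gave the background. Oligodendrocytes also kept only 1 gene above background in saline against endothelial nuclei alone and in METH against the microglia-marker cluster.

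Between the 2 neuron classes the genes split by direction, alike in both libraries for most of them. Nrxn3 was higher in inhibitory than in excitatory neurons, at 11909 against 6936 CPM in METH and 11972 against 8067 CPM in saline. Its log2 ratio of inhibitory over excitatory was 0.78 (0.77 to 0.79) in METH and 0.57 (0.56 to 0.58) in saline. Nrxn2 was also higher in inhibitory neurons, with log2 ratios of 0.33 (0.25 to 0.41) in METH and 0.31 (0.22 to 0.40) in saline. Not all interneuron subclasses shared this, since Pvalb interneurons held Nrxn2 at 157 CPM in METH and 154 CPM in saline and Nrxn3 at 7134 CPM in METH and 7767 CPM in saline, below the excitatory class in METH and in saline for Nrxn2 and in saline for Nrxn3. Lamp5 interneurons held Nrxn3 at 2873 CPM in METH and 3513 CPM in saline, below the excitatory class in both libraries. The postsynaptic Nlgn1 leaned the other way, at 1898 against 4247 CPM in METH, a log2 ratio of -1.16 (-1.19 to -1.14), and 2132 against 4392 CPM in saline, -1.04 (-1.07 to -1.02). Lrrtm3 followed, at -0.83 (-0.88 to -0.77) in METH and -0.73 (-0.79 to -0.67) in saline, and Lrrtm4 was less uneven, at -0.31 (-0.33 to -0.29) in METH and -0.16 (-0.18 to -0.14) in saline. Nlgn2 did not differ beyond its interval, at -0.02 (-0.17 to 0.13) in METH and -0.08 (-0.26 to 0.09) in saline. Il1rapl1 differed in the saline library only, at -0.0011 (-0.02 to 0.02) in METH and 0.25 (0.23 to 0.28) in saline, and the difference between these libraries was not tested. Il1rapl2 was at 0.12 (0.08 to 0.16) in METH and 0.04 (0.0022 to 0.09) in saline, and Nlgn3 at 0.17 (-0.05 to 0.38) in METH and 0.62 (0.41 to 0.84) in saline. At 1000 UMIs per nucleus the Il1rapl2 ratio was 0.40 (0.28 to 0.51) in METH and 0.09 (-0.01 to 0.20) in saline, and that of Nlgn3 -0.09 (-0.73 to 0.53) in METH and 0.35 (-0.19 to 0.87) in saline. At 3000 UMIs the Nlgn3 ratio was 0.56 (0.20 to 0.92) in METH and 0.62 (0.30 to 0.93) in saline, so whether it differed beyond its interval changed with the depth. The Lrrtm4 ratio at 1000 UMIs was -0.13 (-0.18 to -0.07) in METH and -0.05 (-0.11 to -0.0017) in saline.

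**Figure D1:**
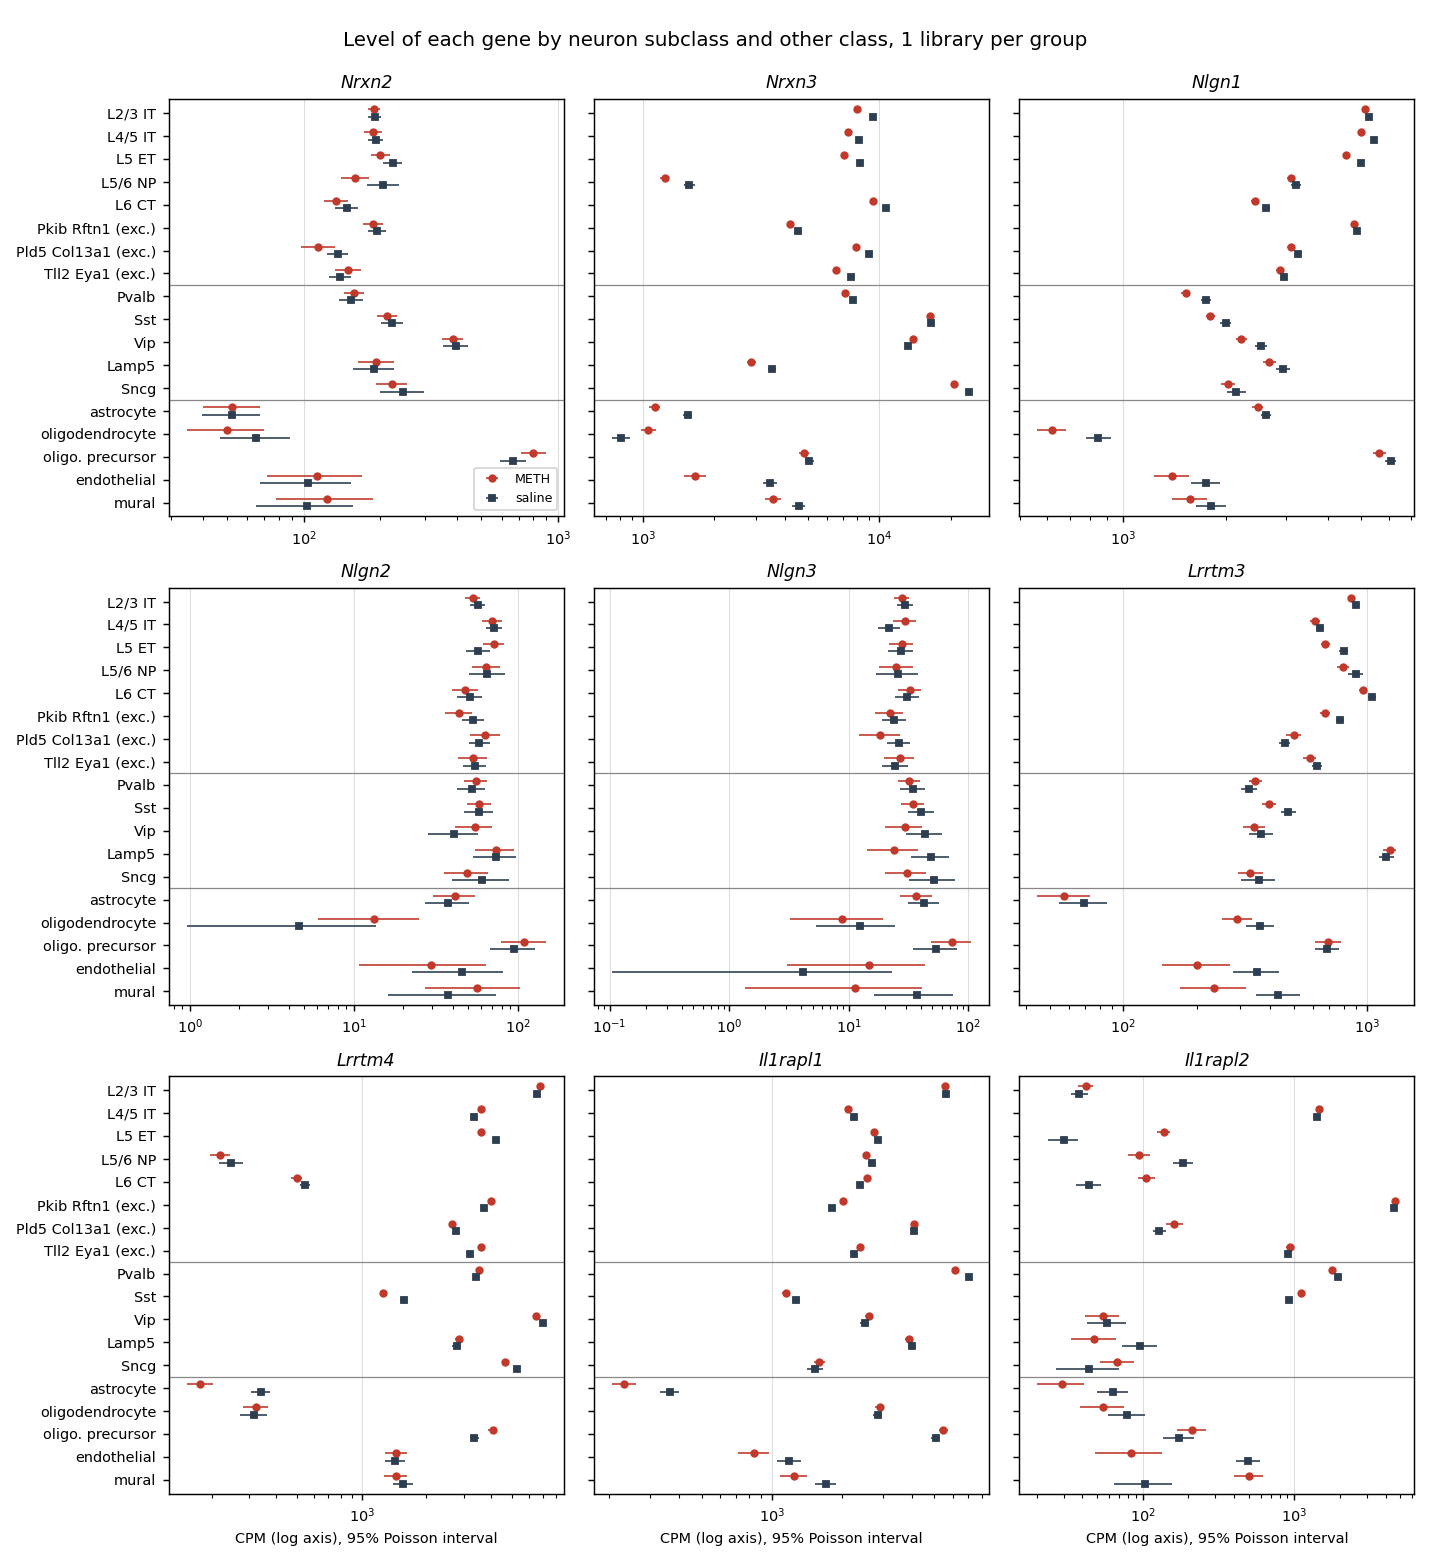
Level of each gene (x axis, CPM, log scale) in 8 excitatory and 5 inhibitory subclasses and 5 other classes (y axis); red circles are METH, dark squares saline, and bars the 95% Poisson interval of the summed count. METH and saline points lie close together in most rows, while Nrxn3, Lrrtm4 and Il1rapl2 spread widely between subclasses.

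For the 7 genes above background in inhibitory neurons, the highest and lowest subclass differed by more than METH and saline did in any subclass. Named subclasses were layer 2/3 and layer 4/5 intratelencephalic, layer 5 extratelencephalic, layer 5/6 near-projecting and layer 6 corticothalamic neurons, and Pvalb, Sst, Vip, Lamp5 and Sncg interneurons. The 3 excitatory clusters with no name are called by their leading genes, Pkib Rftn1, Pld5 Col13a1 and Tll2 Eya1.

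Nrxn3 was highest in Sncg interneurons, at 20599.7 CPM in METH and 23947 CPM in saline, followed by Sst (16329 CPM in METH against 16478 CPM in saline) and Vip interneurons (13920.2 CPM in METH against 13226 CPM in saline). The ranges of the libraries did not overlap between these neighbours. Layer 6 corticothalamic neurons led the excitatory subclasses at 9372 CPM in METH and 10645 CPM in saline, but the ranges of neighbouring subclasses from there down to Tll2 Eya1 overlapped. Lamp5 interneurons stood apart from the other interneurons at 2873 CPM in METH and 3513 CPM in saline, a log2 ratio to the rest of the inhibitory neurons of -2.15 (-2.21 to -2.09) in METH and -1.88 (-1.95 to -1.82) in saline. Layer 5/6 near-projecting neurons were lowest of all 13, at 1235 CPM in METH and 1573 CPM in saline. Against the rest of the excitatory neurons their log2 ratio was -2.57 (-2.64 to -2.51) in METH and -2.40 (-2.48 to -2.33) in saline, and -2.50 in METH and -2.51 in saline at 1000 UMIs per nucleus. At this depth 57.6% of METH and 67.8% of saline near-projecting nuclei held a UMI, against 55.0% in METH and 70.5% in saline vascular nuclei. Nrxn3 was thus not detectable above background in near-projecting neurons.

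Lrrtm4 shared this gap. It was highest in Vip interneurons (6441 CPM in METH against 6996 CPM in saline) and layer 2/3 neurons (6742 CPM in METH against 6506 CPM in saline), whose ranges overlapped. Near-projecting neurons held 219 CPM in METH and 247 CPM in saline, with log2 ratios to the rest of the excitatory neurons of -4.29 (-4.44 to -4.13) in METH and -3.98 (-4.17 to -3.79) in saline. Layer 6 corticothalamic neurons, high in Nrxn3, were also low in Lrrtm4, at 499 CPM in METH and 542 CPM in saline and log2 ratios of -3.14 (-3.23 to -3.06) in METH and -2.92 (-3.00 to -2.84) in saline. The Lrrtm4 share in near-projecting nuclei, 14.8% in METH and 19.4% in saline, was below the vascular shares of 39.4% in METH and 47.0% in saline. Lrrtm3, its relative, showed no such gap, with 794 CPM in METH and 896 CPM in saline in near-projecting and 961 CPM in METH and 1048 CPM in saline in corticothalamic neurons. Lrrtm3 was highest in Lamp5 interneurons, at 1235 CPM in METH and 1197 CPM in saline, and log2 ratios to the rest of the inhibitory neurons of 1.86 (1.75 to 1.97) in METH and 1.69 (1.56 to 1.81) in saline. Lamp5 interneurons, the lowest interneurons for Nrxn3, were thus the highest neurons for Lrrtm3.

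Nlgn1 was highest in layer 2/3 (5131 CPM in METH against 5268 CPM in saline) and layer 4/5 neurons (4980.5 CPM in METH against 5434 CPM in saline), whose ranges overlapped, and lowest in Pvalb interneurons (1529.6 CPM in METH against 1757 CPM in saline). Layer 6 corticothalamic neurons were the lowest excitatory subclass (2434 CPM in METH against 2628 CPM in saline), and their range overlapped that of Vip interneurons (2227 CPM in METH against 2540.4 CPM in saline). Nrxn2 was highest in Vip interneurons, at 387 CPM in METH and 396 CPM in saline and log2 ratios to the other inhibitory neurons of 1.005 (0.85 to 1.16) in METH and 1.03 (0.85 to 1.22) in saline, and lowest in the Pld5 Col13a1 cluster (114 CPM in METH against 136 CPM in saline). Nlgn2 ranged only between 43.8 and 73.2 CPM over the METH subclasses and between 41.0 and 73.2 CPM over the saline ones. Nlgn3 ranged between 18.4 and 34.2 CPM in METH and between 21.9 and 51.3 CPM in saline. Neither gene was told from background in either neuron class.

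Il1rapl1 and Il1rapl2 had different maps. Il1rapl1 was highest in Pvalb interneurons, at 6118 CPM in METH and 7086 CPM in saline, next in layer 2/3 neurons (5588 CPM in METH against 5624 CPM in saline), and lowest in Sst interneurons (1148 CPM in METH against 1273 CPM in saline). Il1rapl2 was highest in the Pkib Rftn1 cluster, at 4628 CPM in METH and 4526 CPM in saline, and was the gene with the largest fold of that cluster over other excitatory neurons although it took no part in the clustering. Its log2 ratio to the rest of the excitatory neurons was 3.65 (3.61 to 3.69) in METH and 3.38 (3.34 to 3.42) in saline. The marker levels of this cluster came closest to layer 6 intratelencephalic neurons but did not lead by enough for a name. Pvalb interneurons (1776 CPM in METH against 1927 CPM in saline), layer 4/5 neurons (1458 CPM in METH against 1403 CPM in saline), Sst interneurons (1111 CPM in METH against 921 CPM in saline) and the Tll2 Eya1 cluster (929.5 CPM in METH against 907 CPM in saline) followed. The other 8 subclasses held at most 186 CPM in either library. Layer 2/3 neurons, high in Il1rapl1, held 42.2 CPM in METH and 38.2 CPM in saline of Il1rapl2, so the 2 relatives were both high in Pvalb interneurons and parted in layer 2/3 neurons and in the Pkib Rftn1 cluster.

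Single interneuron clusters split the Pvalb and Sst subclasses further. Nlgn1 was low in 2 of 3 Pvalb clusters. The Esr2 Mybpc1 cluster, with 55 METH and 55 saline nuclei, held 346 CPM in METH and 382 CPM in saline, and the Corin Ltbp1 cluster, with 38 METH and 36 saline nuclei, held 398 CPM in METH and 427 CPM in saline. The main Pvalb cluster, led by Egflam and Tcf7l1, held 1911 CPM in METH and 2191 CPM in saline. Against the other Pvalb nuclei the log2 ratio of the Esr2 Mybpc1 cluster was -2.31 (-2.57 to -2.07) in METH and -2.37 (-2.66 to -2.10) in saline, and that of the Corin Ltbp1 cluster -2.07 (-2.34 to -1.81) in METH and -2.16 (-2.48 to -1.86) in saline. One Sst cluster, led by Tnc and Trabd2b, was low in the same way, at 366 CPM in METH and 381 CPM in saline, while the other 3 Sst clusters, of which Ror1 Hmga2 held 47 METH and 63 saline nuclei, lay between 1942 and 2303 CPM in METH and between 2146 and 2468 CPM in saline. The Nlgn1 level of an interneuron thus differed with its cluster within the subclass in both libraries, and the low clusters were under the vascular level of 1475 CPM in METH and 1781 CPM in saline.

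**Figure D2:**
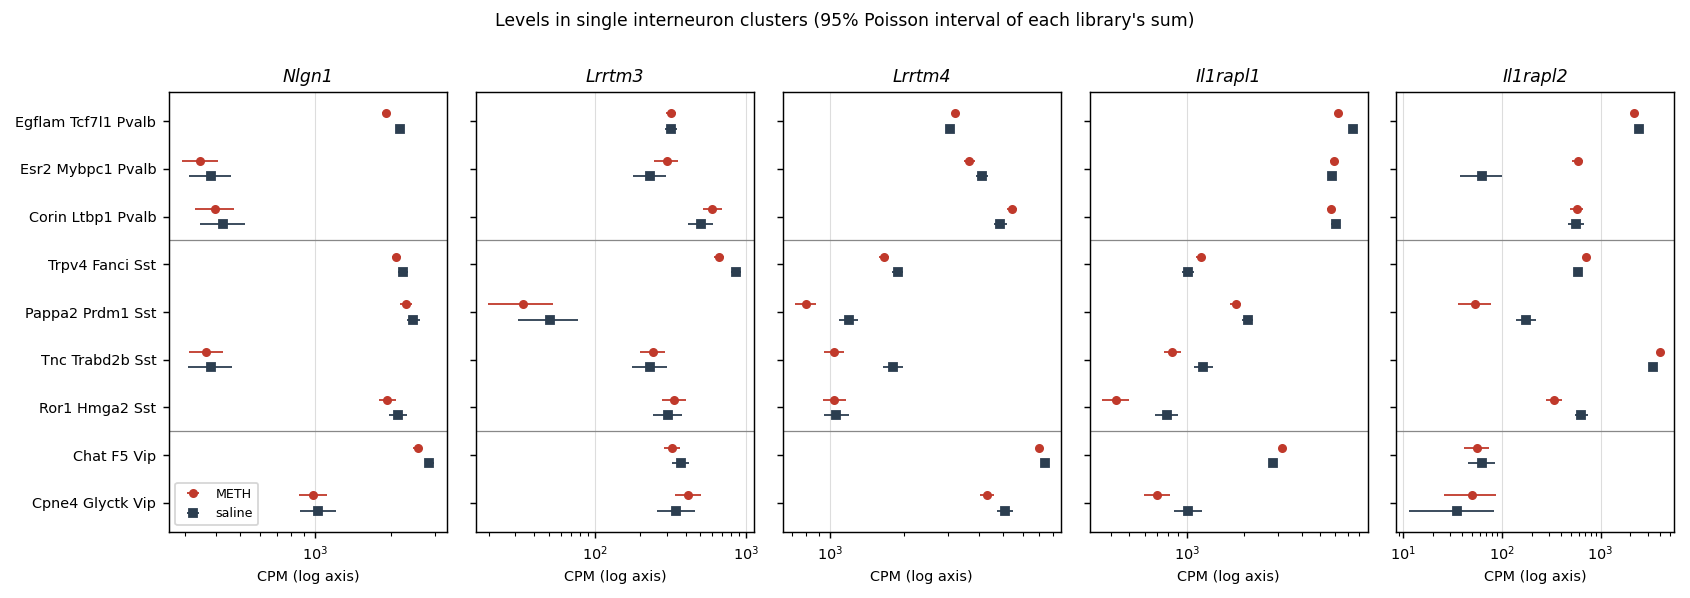
Levels of 5 of the genes (x axis, CPM, log scale) in 9 Pvalb, Sst and Vip clusters named by their leading genes (y axis); red circles are METH, dark squares saline, bars the 95% Poisson interval. Nlgn1 drops in the Esr2 Mybpc1, Corin Ltbp1 and Tnc Trabd2b clusters, and Il1rapl2 peaks in the Tnc Trabd2b cluster.

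The same Tnc Trabd2b cluster had the highest Il1rapl2 level among the Sst clusters, at 3976 CPM in METH and 3381 CPM in saline. Log2 ratios to the other Sst nuclei were 3.11 (2.99 to 3.22) in METH and 2.82 (2.67 to 2.96) in saline. It did not hold all Il1rapl2 of the subclass. Without the highest nucleus of each library it held 1663 METH and 791 saline UMIs, and the Trpv4 Fanci cluster 640 METH and 379 saline UMIs. Lrrtm3 was lowest in the Pappa2 Prdm1 Sst cluster, at 33.5 CPM in METH and 50.5 CPM in saline and log2 ratios of -3.90 (-4.67 to -3.24) in METH and -3.61 (-4.31 to -2.98) in saline, and was high in the Trpv4 Fanci Sst cluster, at 665 CPM in METH and 861 CPM in saline. Vip interneurons split too: Il1rapl1 was at 3144 CPM in METH and 2837 CPM in saline in the Chat F5 cluster and at 701 CPM in METH and 1019 CPM in saline in the Cpne4 Glyctk cluster, which held 44 METH and 33 saline nuclei. Nrxn3 was more even within subclasses, between 13814 and 17558 CPM over the 4 METH Sst clusters and between 13550.2 and 17573 CPM over the saline ones.

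The genes whose levels were most like each of the 9 were found over 20 classes and subclasses, by Pearson's r of log2(CPM + 1) averaged over the libraries, among 6967 genes. The excitatory and inhibitory class points sum nuclei that also form the subclass points. All points share libraries and depth, so r is a description. For Nrxn2 they were Arvcf (0.897), Hap1 (0.858) and Ugdh (0.856). For Nrxn3 they were Camk1g (0.869), Neto1 (0.861) and Cfap69 (0.835). For Nlgn1 they were Tecpr2 (0.870), Med12l (0.854) and Dlgap4 (0.840). For Nlgn2 they were Zc3h14 (0.939), Cd276 (0.903) and Agk (0.903). For Nlgn3 they were Apc2 (0.897), Caskin1 (0.890) and Epm2a (0.887). For Lrrtm3 they were Cyfip2 (0.871), Tmem132b (0.867) and Ncoa7 (0.862). For Lrrtm4 they were Syt17 (0.875), Actn2 (0.857) and Tmem132d (0.812). For Il1rapl1 they were Cyfip2 (0.839), Slf1 (0.839) and Ppfia2 (0.824). For Il1rapl2 they were Oprd1 (0.779), Rspo2 (0.751) and Fam3c (0.675). Nlgn2 and Nlgn3 were not told from background. Within a single library r was as low as 0.549 (Epm2a for Nlgn3, METH), 0.555 (Fam3c for Il1rapl2, saline) and 0.561 (Slf1 for Il1rapl1, saline), and for Nlgn2 that of Agk was 0.607 in METH and 0.916 in saline. Camk1g is a calcium/calmodulin-dependent kinase and Neto1 an auxiliary subunit of kainate receptors. Dlgap4 is a postsynaptic scaffold protein, Ppfia2 a liprin of the presynaptic active zone, Caskin1 a CASK partner, Syt17 a synaptotagmin and Oprd1 the delta opioid receptor. Cyfip2, a regulator of actin branching, led for both Lrrtm3 and Il1rapl1.

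METH and saline were then compared for each gene and class as a log2 ratio of CPM with its exact binomial interval. The size rule called a gene higher or lower where its whole interval lay beyond 1.5-fold. It was applied to measured genes, those whose UMIs in the libraries summed to 100 or more and whose level reached 20 CPM in METH or saline. In excitatory neurons 0 of the 9 genes passed the size rule, which 0.308% of 7145 measured genes passed. In inhibitory neurons 0 of 9 passed, against 0.292% of 7546 measured genes. The median log2 ratio of the 9 was -0.04 in excitatory and -0.07 in inhibitory neurons, beside -0.01 and -0.01 over all measured genes. With so small a share called among all genes, a count of 0 in 9 does not set these genes apart.

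Nrxn3 was the gene with the lowest ratio in excitatory neurons, at 6936 CPM in METH and 8067 CPM in saline, a log2 ratio of -0.22 (interval -0.23 to -0.21). At the main scaling it was below 0 in all 8 excitatory subclasses, between -0.35 in near-projecting neurons and -0.12 in the Pkib Rftn1 cluster, with every interval below 0, and none passed the size rule. Over 14 alternative settings the excitatory ratio stayed between -0.30 and -0.18, and 8.15% of measured genes had a lower ratio in these libraries. In inhibitory neurons Nrxn3 was at 11909 CPM in METH and 11972 CPM in saline, a log2 ratio of -0.01 (interval -0.02 to 0.01). Within the class 4 of 5 subclasses were below 0, the lowest being Lamp5 at -0.29 (interval -0.38 to -0.20), and Vip interneurons were above it at 0.07 (interval 0.04 to 0.11). The difference between the classes has no test across animals. Vascular nuclei were lower in METH too, with a Nrxn3 level of 2551 CPM in METH and 3971 CPM in saline, and the part of this background in the excitatory ratio was not tested.

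**Figure D3:**
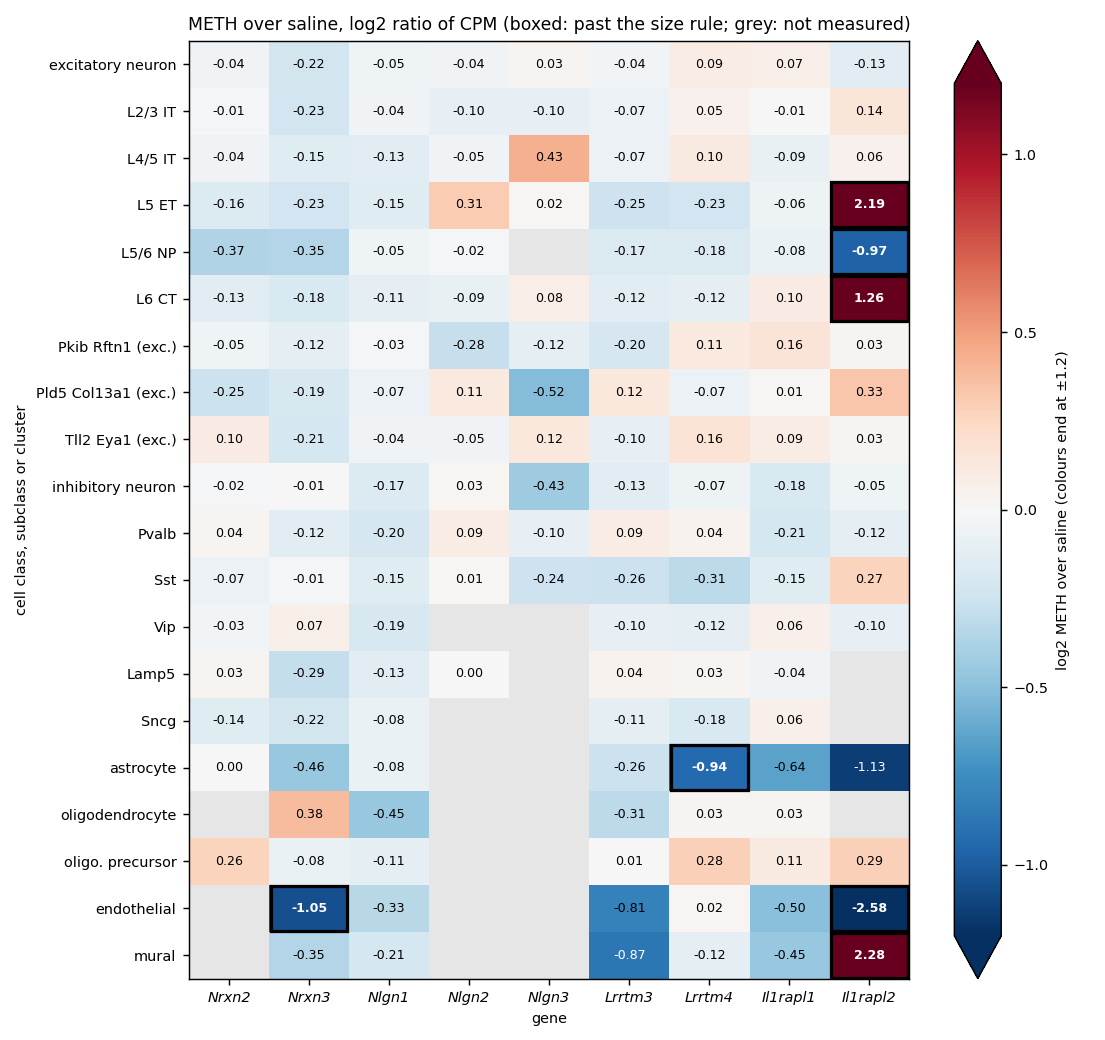
Log2 ratio of METH over saline CPM for each of the 9 genes (columns) in neuron classes, their subclasses and other classes (rows); red is higher in METH, blue lower, boxes mark values past the size rule and grey cells were not measured. The Nrxn3 column is blue in all 8 excitatory subclasses and the Nlgn1 column in all 13, and Il1rapl2 holds 5 of the 7 boxes.

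At the main scaling Nlgn1 was also below 0 in all 13 neuron subclasses, with 5 of 8 excitatory and 4 of 5 inhibitory intervals below 0. The layer 2/3 ratio was only -0.04. With DESeq2 factors the all-gene median there moved from -0.03 to 0.02, so the sign in layer 2/3 neurons depended on the scaling. Vascular Nlgn1 was lower in METH too, and the part of this background in the neuron ratios was not tested. Its log2 ratio was -0.05 (interval -0.06 to -0.04) in excitatory neurons (4247 CPM in METH against 4392 CPM in saline) and -0.17 (interval -0.20 to -0.13) in inhibitory neurons (1898 CPM in METH against 2132 CPM in saline). Over 14 alternatives it lay between -0.24 and -0.03 in excitatory and between -0.19 and -0.14 in inhibitory neurons. Il1rapl2 was at -0.13 (interval -0.16 to -0.10) in excitatory neurons (858 CPM in METH against 937 CPM in saline) and -0.05 (interval -0.10 to -0.002) in inhibitory neurons (932 CPM in METH against 966 CPM in saline), and over 14 alternatives ranged from -0.54 to 0.06 in excitatory and from -0.15 to 0.08 in inhibitory neurons, so neither direction held throughout. Within the excitatory class its ratio was above 0 in 7 of 8 subclasses, 3 with the interval above 0, against the sign of the pooled value. The Pkib Rftn1 cluster, where Il1rapl2 was highest, made up 183 of 2147 METH and 356 of 3484 saline excitatory nuclei. Il1rapl1 was at 0.07 (interval 0.06 to 0.09) in excitatory and -0.18 (interval -0.21 to -0.16) in inhibitory neurons, where Pvalb interneurons had 6118 CPM in METH against 7086 CPM in saline (-0.21). Lrrtm4 was at 0.09 (interval 0.07 to 0.10) in excitatory and -0.07 (interval -0.09 to -0.04) in inhibitory neurons, with the lowest interneuron ratio in Sst neurons (1258 CPM in METH against 1564 CPM in saline, -0.31). Lrrtm3 was at -0.04 (interval -0.07 to -0.01) and -0.13 (interval -0.20 to -0.06), and Nrxn2 at -0.04 (interval -0.10 to 0.02) and -0.02 (interval -0.12 to 0.08), the first value of each pair being that of excitatory neurons. None of these values passed the size rule. Over 14 alternatives the excitatory ratio ranged from -0.17 to 0.11 for Lrrtm4 and from -0.04 to 0.09 for Il1rapl1, so neither direction held throughout. By excitatory subclass Lrrtm4 was below 0 in 4 and above 0 in 4, between -0.23 and 0.16, and Il1rapl1 below 0 in 4 and above 0 in 4, between -0.09 and 0.16. Across all measured genes 54.0% of excitatory and 52.6% of inhibitory ratios were below 0.

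Nlgn3 had the lowest inhibitory ratio of the 9, at 30.2 CPM in METH and 40.7 CPM in saline, a log2 ratio of -0.43 (interval -0.69 to -0.17). It rests on 260 METH and 240 saline UMIs at a share of nuclei not above background, and the interval reached well inside 1.5-fold. Nlgn3 was measured in 2 inhibitory subclasses, at -0.10 (interval -0.57 to 0.37) in Pvalb and -0.24 (interval -0.73 to 0.24) in Sst neurons. In excitatory neurons it was at 0.03 (interval -0.13 to 0.19). Nlgn2 was at -0.04 (interval -0.15 to 0.07) in excitatory and 0.03 (interval -0.18 to 0.23) in inhibitory neurons. Neither low gene gave a difference past the size rule in any subclass.

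Il1rapl2 was the only one of the 9 to pass the size rule in a named neuron subclass, in 3 of the 10. In layer 5 extratelencephalic neurons it was higher in METH, at 137 CPM in METH and 30.1 CPM in saline, a log2 ratio of 2.19 (interval 1.83 to 2.56), where 0.315% of all measured genes passed in either direction. In layer 6 corticothalamic neurons it was higher, at 106 CPM in METH and 44.1 CPM in saline, 1.26 (interval 0.93 to 1.60), where 0.407% of genes passed. In near-projecting neurons it was lower, at 94.5 CPM in METH and 186 CPM in saline, -0.97 (interval -1.30 to -0.65), where 0.119% passed. All 3 are subclasses with little Il1rapl2, and their totals came from few nuclei. In none of the 3 was Il1rapl2 above the vascular background in either library. In extratelencephalic neurons 8 of 203 METH nuclei with 10 or more UMIs held 78.7% of the METH UMIs, against 1 of 289 saline nuclei, while the median nucleus held 0 in both. In corticothalamic neurons 3 of 295 METH nuclei held 62.6% of the UMIs, and no saline nucleus reached 10. In near-projecting neurons 1 of 237 METH and 5 of 213 saline nuclei did. The share of nuclei with a UMI at 1000 UMIs was 4.75% in METH and 4.76% in saline corticothalamic nuclei, under the vascular shares given above. For comparison, the nuclei of the Pkib Rftn1 cluster held a median of 49 Il1rapl2 UMIs in METH and 30 in saline. The METH nuclei of that cluster were also deeper than the saline ones, the median nucleus holding 12571 UMIs in METH and 8076 in saline.

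Without the highest nucleus of each library the extratelencephalic ratio was 2.09 and still past the rule, the corticothalamic ratio was 0.53 and the near-projecting ratio -0.89, neither past it. With no doublet removal the ratios were 1.35, -0.13 and -0.56 in extratelencephalic, corticothalamic and near-projecting neurons, and at 1000 UMIs per nucleus they were 1.65, 0.39 and -0.35, none past the rule at that depth. Over 13 alternatives the extratelencephalic ratio ranged from 1.06 to 2.25 and passed in 11. The corticothalamic ratio ranged from -0.13 to 1.36 and passed in 7, and the near-projecting ratio from -1.002 to -0.35 and passed in 5. In the 5 subclasses where Il1rapl2 was most abundant no ratio passed the rule. The ratio was 0.03 (interval -0.0034 to 0.07) in the Pkib Rftn1 cluster, 0.06 (interval -0.00034 to 0.11) in layer 4/5 neurons and 0.03 (interval -0.06 to 0.12) in the Tll2 Eya1 cluster, while it was 0.27 (interval 0.18 to 0.36) in Sst and -0.12 (interval -0.18 to -0.06) in Pvalb interneurons, where the interval lay to one side of 0. In the other 10 subclasses and unnamed excitatory clusters, none of the measured genes of the set passed. The shares of all measured genes that passed there were 0.298% in layer 2/3, 0.239% in layer 4/5, 0.114% in Pkib Rftn1, 0.0912% in Pld5 Col13a1 and 0.151% in Tll2 Eya1 neurons. They were 0.167% in Pvalb, 0.307% in Sst, 0.146% in Vip, 0.471% in Lamp5 and 0.107% in Sncg interneurons.

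**Figure D4:**
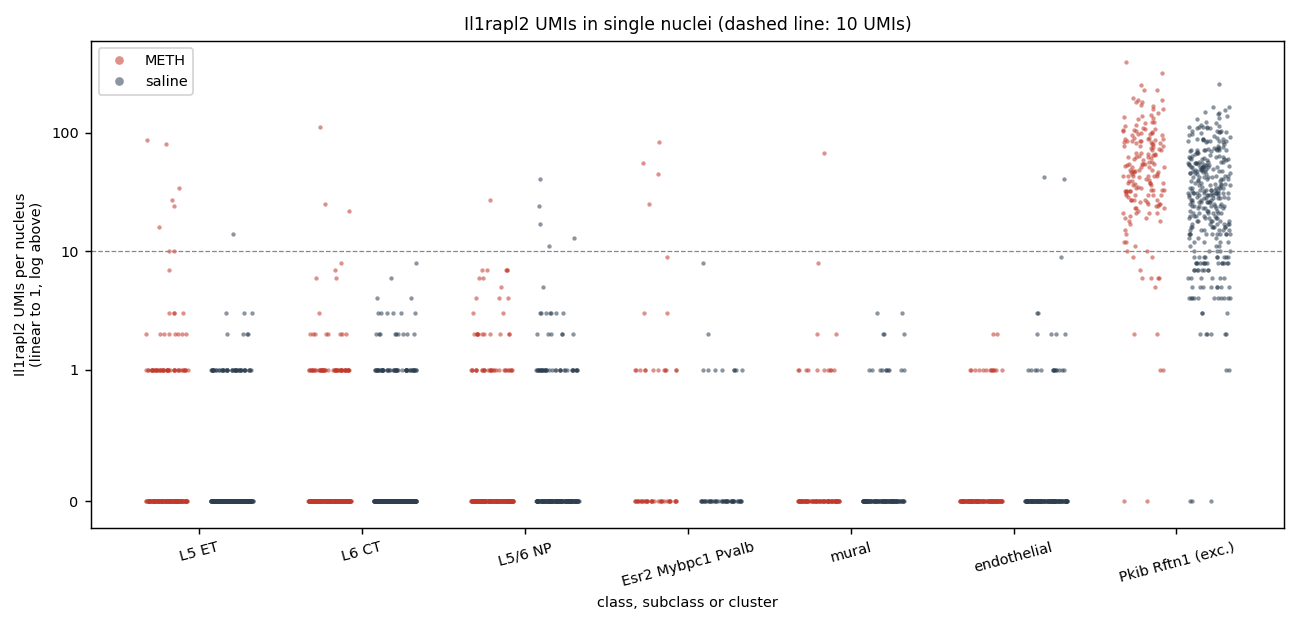
Il1rapl2 UMIs in single nuclei (y axis, linear to 1 and log above) of 7 classes, subclasses and clusters (x axis); each point is a nucleus, red for METH and dark for saline. In the Pkib Rftn1 cluster most nuclei of both libraries lie above the dashed line at 10 UMIs, while elsewhere a few nuclei do and most hold 0.

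Of the 6 interneuron clusters with at least 50 nuclei in each library, 3 held a value past the rule. The other 3 held none, where 0.16% (Egflam Tcf7l1), 0.147% (Chat F5) and 0.519% (Trpv4 Fanci) of all genes passed. In the Esr2 Mybpc1 Pvalb cluster, where 0.194% of all genes passed, Il1rapl2 was higher in METH, at 591 CPM in METH and 63.6 CPM in saline, 3.22 (interval 2.52 to 3.99). There 4 of 55 METH nuclei held 88.6% of the UMIs, and without the highest nucleus of each library the ratio was 3.43. In the Pappa2 Prdm1 Sst cluster, where 0.141% passed, Il1rapl2 was lower, at 54.0 CPM in METH and 178 CPM in saline, -1.72 (interval -2.39 to -1.08), from 29 METH and 74 saline UMIs. Without the highest nucleus of each library 21 METH and 55 saline UMIs were left, too few for the gene to count as measured or called. In the Tnc Trabd2b Sst cluster, where 0.337% passed, Lrrtm4 was lower, at 1037 CPM in METH and 1794 CPM in saline, -0.79 (interval -0.98 to -0.60), and -0.72, no longer past the rule, without the highest nucleus of each library.

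Among the glial and vascular classes 4 values passed, in astrocytes below background and in the vascular nuclei that themselves set it. METH astrocytes held less Lrrtm4, 177 CPM in METH and 338 CPM in saline, -0.94 (interval -1.19 to -0.69), where 0.772% of all genes passed. A single saline nucleus held 34.3% of the saline UMIs, and without the highest nucleus of each library the ratio was -0.37 and did not pass. Neuron markers were lower there too: the summed excitatory markers, all 5 with a UMI, were at 106 CPM in METH and 199 CPM in saline astrocytes, and the 6 inhibitory markers at 349 CPM in METH and 469 CPM in saline. This was not particular to neuron markers. Oligodendrocyte markers were at 176 CPM in METH and 344 CPM in saline, precursor markers at 64.3 and 103 CPM and microglia markers at 33.4 and 58.4 CPM. Mural markers went the other way, at 217 CPM in METH and 200 CPM in saline. In endothelial nuclei, where 5.45% of all genes passed, Nrxn3 was lower, at 1666 CPM in METH and 3457 CPM in saline, -1.05 (interval -1.24 to -0.87), and Il1rapl2 was lower, at 83.6 CPM in METH and 498 CPM in saline, -2.58 (interval -3.40 to -1.84), from 17 METH and 120 saline UMIs. The excitatory markers there, again all 5 with a UMI, were at 339 CPM in METH and 581 CPM in saline. The inhibitory ones were at 162 CPM in METH and 178 CPM in saline, with Gad2 at 0 in METH and Dlx1 at 0 in saline. Without the highest nucleus of each library the endothelial Nrxn3 ratio was -1.49. Over 13 alternatives it ranged from -1.49 to -0.36 and passed the rule in 5, and it was -0.46 with no doublet removal and -0.36 at 1000 genes or more per nucleus. Endothelial Nlgn1 and Il1rapl1 passed only once the highest nuclei were left out, both lower in METH. Their ratios were then -1.09 (interval -1.39 to -0.79) and -1.54 (interval -1.95 to -1.14). In the main setting 5 of the 6 measured genes were below 0 in endothelial nuclei. Of the saline Il1rapl2 UMIs, 69.2% came from 2 of 162 nuclei, and without the highest nucleus of each library 15 METH and 78 saline UMIs were left, too few for the gene to count as measured or called. In mural nuclei, where 2.1% passed, Il1rapl2 was higher, at 501 CPM in METH and 103 CPM in saline, 2.28 (interval 1.59 to 3.02), and 1 METH nucleus held 75.3% of the METH UMIs. Without the highest nucleus of each library the ratio was 0.47. The mural excitatory markers, all 5 with a UMI, were at 445 CPM in METH and 705 CPM in saline, and the 6 inhibitory ones at 287 CPM in METH and 921 CPM in saline. The part of neuronal RNA, or of RNA from other classes, in these values was not tested. In oligodendrocytes, where 0.853% of all genes passed, 0 of 5 measured genes of the set did, and in oligodendrocyte precursors, where 0.0531% passed, 0 of 7 did.

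The wider adhesion machinery was read from 77 listed partner genes, of which 73 have a symbol in the files. In excitatory neurons 53 were measured and 0 passed the size rule, with a median log2 ratio of -0.05, and in inhibitory neurons 53 were measured and 0 passed, with a median of -0.05, beside 0.308% of excitatory and 0.292% of inhibitory measured genes that passed and all-gene medians of -0.01 and -0.01. With so small a share among all genes a count of 0 in 53 does not set the partners apart. The genes with the highest and the lowest excitatory ratio of a list are given, each with its log2 ratio. Among neurexin ligands Dag1, which encodes dystroglycan, was highest, at 37.3 CPM in METH against 36.3 CPM in saline, 0.04. Among leucine-rich postsynaptic proteins Flrt3 was at 86.4 CPM in METH against 73.4 CPM in saline, 0.23, and the netrin-G ligand gene Lrrc4c at 1357 CPM in METH against 1861 CPM in saline, -0.46, the lowest of all 53. Among calsyntenins and the neuroligin-binding MDGA genes Mdga1 was at 51.7 CPM in METH against 44.3 CPM in saline, 0.22, and Clstn2 at 78.2 CPM in METH against 93.3 CPM in saline, -0.25. These values all lay within the 1.5-fold of the rule. Among presynaptic phosphatases and their partners Ntrk3, a neurotrophin receptor that binds receptor phosphatases, was at 1051 CPM in METH against 1002 CPM in saline, 0.07, and Il1rap, a relative of the Il1rapl genes, at 166 CPM in METH against 213 CPM in saline, -0.36. Among latrophilins and teneurins Adgrl3 was at 1215 CPM in METH against 1166 CPM in saline, 0.06, and Tenm4 at 662 CPM in METH against 841 CPM in saline, -0.35. Among delta receptors and netrin-G genes Ntng1 was at 99.6 CPM in METH against 83.7 CPM in saline, 0.25, and Ntng2 at 23.8 CPM in METH against 27.8 CPM in saline, -0.22. Latrophilins and teneurins pair with each other across the cleft, and netrin-G proteins pair with Lrrc4 proteins. Among presynaptic scaffolds Ppfia4, a liprin, was at 23.9 CPM in METH against 21.5 CPM in saline, 0.15, and Cask, which binds the neurexin tail, at 263 CPM in METH against 302 CPM in saline, -0.20. Among postsynaptic scaffolds Lhfpl4, which links GABA-A receptors to neuroligin 2, was at 25.1 CPM in METH against 22.7 CPM in saline, 0.15, and Gphn, the gephyrin gene, at 447 CPM in METH against 509 CPM in saline, -0.19. In astrocytes 34 partner genes were measured, 23 of them with a ratio below 0, and Lrfn5 passed the rule, lower in METH (101 CPM in METH against 226 CPM in saline, -1.16), beside 0.772% of all genes. In endothelial nuclei 15 were measured, 10 with a ratio below 0, and those past the rule included Lrrc4c, lower in METH (339 CPM in METH against 755 CPM in saline, -1.16), beside 5.45% of all genes. The summed excitatory markers were lower in METH in both classes, at 106 CPM in METH and 199 CPM in saline astrocytes and 339 CPM in METH and 581 CPM in saline endothelial nuclei. Oligodendrocyte, precursor and microglia markers were lower in METH astrocytes too. The part of RNA from other classes in these values was not tested.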

How the data were processed

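Single-nucleus RNA of the orbitofrontal cortex was sequenced in 2 libraries, 1 per treatment, with 3' chemistry per the labels' protocols. The deposited values are unnormalised UMI counts of each gene in each barcode, and the authors made them with Cell Ranger 7.0.0, as the file headers state (per the file headers). The submitters' processing notes name the human build hg38, while the deposited gene tables hold rat Ensembl identifiers. The rat build and annotation, and the setting for intronic reads, are not given in these sources.

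Nuclei needed 500 genes or more and no more than 5% of UMIs from mitochondrial genes. Scrublet (scanpy 1.11.5, expected doublet rate 0.06) removed 328 METH doublets (5.98%) and 401 saline ones (5.80%). Nuclei of both libraries were clustered together with no integration (2000 variable genes, 30 components, 15 neighbours, Leiden resolution 1, and 0.5 within neurons, igraph 0.11.9). A cluster took a class at 0.4 (neurons) or 0.7 (other classes) of the highest marker level, limits set after the marker levels were seen. The limit of 0.7 keeps out a cluster between precursors and oligodendrocytes of 38 METH and 34 saline nuclei, or 0.737% of METH and 0.522% of saline nuclei. The microglia-marker cluster, of 38 METH and 76 saline nuclei, got no name because it was shallow and none of the listed microglia markers was among its leading genes. Unnamed clusters held 588 METH and 428 saline nuclei in all, among them a cluster of 199 METH nuclei and 1 saline nucleus that entered no comparison. METH was compared with saline only in clusters with 50 nuclei or more in each library, while levels are given for smaller interneuron clusters too.

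UMIs were summed per class and library. Poisson, Clopper-Pearson and conditional binomial intervals are exact and cover counting error only. Scaling alternatives used edgeR 4.0.16 TMM factors and DESeq2 1.42.0 size factors. Fixed naming rules applied: all 9 genes, in each partner list the highest and lowest excitatory ratio, and the 3 genes most like each of the 9 at 50 CPM or more. The genes, lists and tests were chosen with earlier results of these data known. One partner gene is not reported here. Sequences are RefSeq's, from GRCr8.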

Additional observations from a re-analysis of the deposited data

Results flagged for a closer look

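In the main setting the METH over saline ratio of Il1rapl2 had opposite directions in deep-layer projection neurons. Its log2 ratio was 2.19 in layer 5 extratelencephalic and 1.26 in layer 6 corticothalamic neurons, higher in METH, but -0.97 in layer 5/6 near-projecting neurons, lower in METH. The difference between these subclasses was not tested, since each group is 1 library. A few nuclei carry each total: 8 METH and 1 saline extratelencephalic nuclei held 10 or more UMIs, 3 METH and 0 saline corticothalamic nuclei, and 1 METH and 5 saline near-projecting nuclei. The highest single nucleus held 87, 112 and 27 UMIs in METH, against 14, 8 and 41 UMIs in saline, in extratelencephalic, corticothalamic and near-projecting neurons.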

How the results depend on the processing

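In excitatory and inhibitory neurons 0 of the 9 genes and 0 partner genes passed the size rule under each alternative that gave a count, and 302 single-gene values moved by less than their interval, against 164 that moved by more and 2 past the rule that turned their sign. Ratios near 0 that had not passed the rule changed sign under some alternatives too, among them those of Lrrtm4, Il1rapl1 and Il1rapl2 in excitatory neurons. The Il1rapl2 ratio turned to -0.58 in mural nuclei matched on total UMIs and to -0.13 in corticothalamic neurons with no doublet removal. The 4 calls in glial and vascular classes became 2 at 1000 UMIs per nucleus, 0 at matched UMIs, 2 with no doublet removal, 1 at 1000 genes or more per nucleus, 2 at Leiden resolution 0.5 and 2 with the 9 genes and their partners among the variable genes. The 3 calls in named neuron subclasses became 0 at 1000 UMIs, 1 without the top nucleus of each library, 1 with no doublet removal and 1 with those variable genes. Without the top nucleus the glial and vascular calls were endothelial Nrxn3, Nlgn1 and Il1rapl1, all lower in METH. Over all genes, 7 were higher and 15 lower in METH excitatory neurons, against 42 and 67 at 30 UMIs with no CPM minimum and 2 and 6 at 1000 UMIs, and 23 were higher at matched UMIs. In inhibitory neurons 2 were higher and 20 lower, against 16 and 38 at 30 UMIs, 0 and 8 at 1000 UMIs and 5 and 8 at matched UMIs, and 1 was higher at 1% mitochondrial UMIs or less. Above the vascular background, excitatory neurons kept 5 of 6 genes in METH against mural nuclei alone and in saline against the microglia-marker cluster, losing Il1rapl2 both times. Inhibitory neurons kept 6 of 7 in METH and 5 in saline against mural nuclei alone, and 5 in METH and 6 in saline against the microglia-marker cluster. Oligodendrocytes kept 1 of 2 genes in METH against mural nuclei alone and against the microglia-marker cluster, and 1 of 2 in saline against endothelial or mural nuclei alone, while saline astrocytes had 2 in place of 1 against the microglia-marker cluster. The cause of these shifts was not tested. Another scaling moved the median of all genes by over 0.1 in oligodendrocytes only, at -0.12 as reported, 0.06 with TMM and 0.03 with DESeq2 factors, where no gene of the set passed.

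No paired analysis was possible because each group is 1 library, and leaving out a replicate was not possible either. Equal weight per nucleus and per subcluster gave ratios with no interval, so no counts. Vascular nuclei were shallow, which limits what can be told from background for Nlgn2 and Nlgn3.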
